A study of Mus musculus with 9 samples.

Results

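The NMDA receptor subunit mRNAs are those of 7 mouse genes, Grin1, Grin2a, Grin2b, Grin2c, Grin2d, Grin3a and Grin3b, chosen by name as the full set of genes that encode these subunits. They were 7 of the 18555 protein-coding genes with at least 1 count. Their transcripts filled 36 of the 107384 rows of the deposited count table, and these rows were summed per gene and also read one by one. The study asked which cytoplasmic mRNAs are bound by a mutant CELF2, an RNA-binding protein. RNA was sequenced from the cytoplasmic fraction of cortices of mice at postnatal day 0 that were heterozygous for a Celf2 knock-in (KI) allele, p.R493H. The study made 3 conditions, each with 3 biological replicates, from this material. In CELF2-KI RIP an antibody to CELF2 (10 µg, 3 hours) was added to the lysate, in IgG RIP the same amount of control rabbit IgG, and the input was lysate kept aside before the pull-down. All 9 libraries therefore carried the KI allele, and wild-type cortex was not among them. The number of animals behind a replicate was not given in the sources used here.

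NMDA receptors are glutamate-gated cation channels that need glycine or D-serine as a co-agonist and that open fully only when the postsynaptic membrane is already depolarized, so that they detect coincident activity and admit calcium. GluN1, encoded by Grin1, is the obligatory subunit. The GluN2 subunits bind glutamate and set the kinetics of the channel, whereas the GluN3 subunits bind glycine and lower calcium permeability. In the newborn forebrain Grin2b is the main GluN2 gene, and Grin2a expression increases later in postnatal life.

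Total counts were 15919600 to 20052716 in CELF2-KI RIPs, 17365561 to 28773130 in IgG RIPs and 69125700 to 105116427 in the input. The 7 subunit genes together held 28847 to 39946, 15671 to 26280 and 92015 to 136204 of these counts. IgG RIP replicate 3 stood apart from the other 8 libraries, at 83.28 on the first principal component where the others lay between -17.06 and -0.36, and it correlated with the other IgG RIP libraries at r = 0.90 where those correlated at 0.95. For the subunit genes and for the gene lists and markers, values over IgG RIPs are also given without it. Values below are CPM (library-size-normalised counts), scaled between libraries by edgeR's TMM method. They are not divided by transcript length, so they compare libraries for one gene and not one gene with another. A gene was called when edgeR's quasi-likelihood test gave a Benjamini-Hochberg FDR under 0.01 over all 15263 tested genes and the change was at least 2-fold. All 7 genes passed the filter of 0.5 CPM in at least 3 libraries. Grin3b was the only member under 0.5 CPM in any library, in 2 of them.

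Grin2b was the one subunit mRNA called higher in CELF2-KI RIPs than in either control, at about 2-fold. The mRNA of its obligatory partner Grin1 lay lower in CELF2-KI RIPs than in both controls, short of a 2-fold fall. It passed the FDR threshold against the input and narrowly missed it against IgG RIPs. Grin3a was higher by less than 2-fold, and Grin2a, Grin2c, Grin2d and Grin3b passed neither comparison. By the call rule, 1 of 7 subunit genes was higher and 0 of 7 were lower than in IgG RIPs, where 13.4% of all tested genes were called higher and 13.5% lower. The same count held against the input, with 14.6% called higher and 15.5% lower over all tested genes. The 1 of 7 called higher than in both controls stood beside 7.58% of all genes. With 7 genes, 1 call is near these background shares. The CELF2-KI RIP libraries are shared by both comparisons, so the values against IgG RIPs and against the input are not independent.

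**Figure D1:**
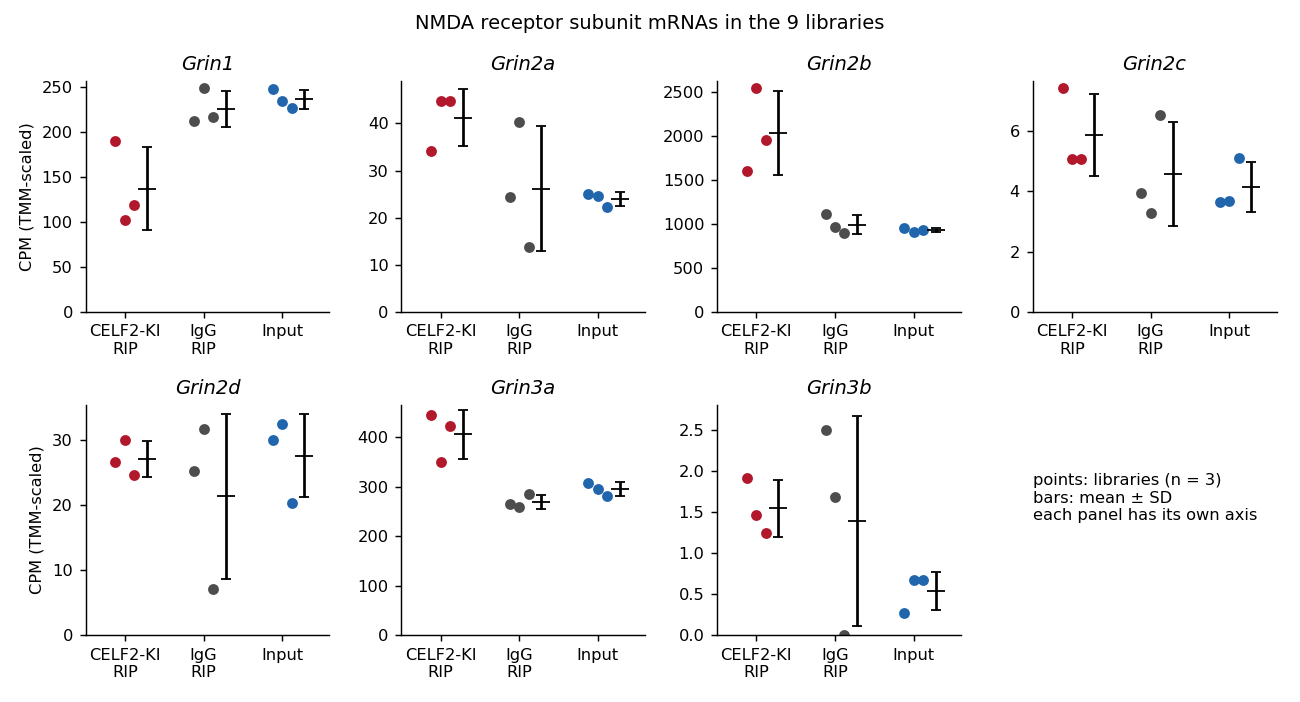
Each panel shows 1 subunit gene, with TMM-scaled CPM on a linear axis from 0 and 1 point per library, and the bar gives the mean ± SD (n = 3). The CELF2-KI RIP points of Grin2b and Grin3a lie above all 6 control points and those of Grin1 lie below them, while the points of Grin2d overlap.

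Grin1, on chromosome 2 (25291177 to 25319187, GRCm38), encodes the GluN1 subunit present in every NMDA receptor. Its level was 189.6, 101.7 and 119.1 CPM in CELF2-KI RIP replicates 1, 2 and 3, against 212.0, 248.6 and 216.1 CPM in IgG RIPs and 247.5, 234.5 and 226.0 CPM in the input. All 3 CELF2-KI RIP libraries were below all 6 control libraries, which 19.9% of all tested genes also were, and replicate 1 was the closest to the controls. The means were 137 ± 46.5, 226 ± 20.03 and 236 ± 10.8 CPM (SD, n = 3). Its change on the log2 scale was -0.72 over IgG RIPs (SE 0.20, FDR = 0.0109 by edgeR), with a 95% interval of -1.16 to -0.28. Against the input it was -0.79 (SE 0.20, FDR = 0.00618), so Grin1 passed the FDR threshold there and missed the 2-fold threshold at 0.58 of the input level. Without IgG RIP replicate 3 the change over IgG RIPs was -0.76. Leaving out CELF2-KI RIP replicate 1 gave -1.03 over IgG RIPs and -1.10 over the input, and Grin1 was then called lower in both. Leaving out CELF2-KI RIP replicate 2 moved it the other way, to -0.55 (FDR = 0.0323) and -0.61 (FDR = 0.0193). Across the 9 leave-one-out fits, the FDR of Grin1 was under 0.01 in 1 against IgG RIPs and in 4 against the input. In the gene table the noncoding antisense gene Grin1os lies within the span of Grin1. It had 0 rows in the count table and the strand setting of the pseudoaligner was not given, so reads from Grin1 and Grin1os could not be told apart.

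Grin2b, on chromosome 6 (135713221 to 136173615), encodes GluN2B, the glutamate-binding subunit typical of the newborn cortex. Its level was 1605, 2543 and 1957 CPM in CELF2-KI RIPs, against 1113, 969 and 892 CPM in IgG RIPs and 950, 910 and 934 CPM in the input. Every CELF2-KI RIP library was above every control library, a separation shared by 25.2% of all tested genes, and replicate 1 was again the closest to the controls. The means were 2035 ± 474, 991 ± 112 and 931 ± 20.2 CPM (SD, n = 3). The fold over IgG RIPs was 2.05 with a 95% interval of 1.60 to 2.63, and over the input it was 2.19 with an interval of 1.71 to 2.8, so both intervals held the 2-fold limit. Grin2b lay at the 85.3rd percentile of all tested genes in log2 fold change over IgG RIPs and at the 85.6th over the input. When 1 library was left out, being higher was steadier than being over 2-fold. The FDR was under 0.01 in 9 of 9 fits that each left out 1 library, for both comparisons, while the call was kept in 6 of 9 against IgG RIPs and in 7 of 9 against the input. Without IgG RIP replicate 3 the log2 fold change over IgG RIPs was 0.96 (FDR = 0.00128), just under 2-fold, and without CELF2-KI RIP replicate 2 it was 0.84. Leaving out input replicate 2, which changes the scaling and the filter, gave 0.93. With curated rows only, the fold over IgG RIPs stayed over 2 and the FDR threshold was missed (log2 1.05, FDR = 0.0287). Over the input that fit gave 1.39 (FDR = 0.00857).

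Grin2a, on chromosome 16 (9567901 to 9996083), encodes GluN2A, which gives faster receptors and joins synapses as they mature. It measured 34.2, 44.8 and 44.7 CPM in CELF2-KI RIPs, 24.3, 40.4 and 13.8 CPM in IgG RIPs and 25.0, 24.6 and 22.3 CPM in the input. The CELF2-KI RIP libraries were all above the input, but IgG RIP replicate 2 reached into their range. Its change on the log2 scale was 0.66 over IgG RIPs (SE 0.31, FDR = 0.0924) and 0.78 over the input (SE 0.30, FDR = 0.0460), and neither passed. The IgG RIP value rested on single libraries, since it was 1.12 and called without IgG RIP replicate 2 and 0.35 without IgG RIP replicate 3.

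Grin2c, on chromosome 11 (115249169 to 115267297), encodes GluN2C, best known from the cerebellum, and was counted by 33 to 93 counts in the RIP libraries. It measured 7.44, 5.08 and 5.09 CPM in CELF2-KI RIPs, 3.94, 3.27 and 6.52 CPM in IgG RIPs and 3.64, 3.69 and 5.10 CPM in the input. The groups overlapped in both comparisons. Its change on the log2 scale was 0.35 over IgG RIPs (SE 0.31, FDR = 0.362) and 0.50 over the input (SE 0.30, FDR = 0.172). Single libraries moved the first value between 0.15, when CELF2-KI RIP replicate 1 was left out, and 0.69 (FDR = 0.0554), when IgG RIP replicate 3 was, and Grin2c was called in neither case.

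Grin2d, on chromosome 7 (45831883 to 45871194), encodes GluN2D, a slowly deactivating subunit found in interneurons. It measured 26.6, 30.0 and 24.6 CPM in CELF2-KI RIPs, 25.2, 31.6 and 7.10 CPM in IgG RIPs and 30.0, 32.3 and 20.3 CPM in the input, so that the 3 conditions overlapped throughout. Its log2 fold change over IgG RIPs was 0.35 (SE 0.42, FDR = 0.507), and without IgG RIP replicate 3, which held the lowest value, it was -0.07. Over input it was -0.03 with a 95% interval of -0.94 to 0.89, which leaves room for nearly a 2-fold change in either direction.

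Grin3a, on chromosome 4 (49661611 to 49846023), encodes GluN3A, a glycine-binding subunit abundant in the early postnatal brain. It measured 445, 351 and 424 CPM in CELF2-KI RIPs, 264, 259 and 285 CPM in IgG RIPs and 309, 295 and 280 CPM in the input. The CELF2-KI RIP libraries were above all 6 controls, with replicate 2 the lowest of the 3, the reverse of its place for Grin2b. Its change on the log2 scale was 0.59 over IgG RIPs (SE 0.11, FDR = 0.00121) and 0.46 over the input (SE 0.11, FDR = 0.00454), or 1.51-fold and 1.38-fold. Grin3a therefore passed the FDR threshold in both comparisons and the 2-fold threshold in neither. Without IgG RIP replicate 3 the change over IgG RIPs was 0.63 (FDR = 0.00181). The difference from the input was less steady. Its FDR was under 0.01 in 4 of 9 fits without 1 library. The log2 value was 0.01 under scaling by the total counts of the tested genes.

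Grin3b, on chromosome 10 (79970397 to 79977190), encodes GluN3B, known from motor neurons, and had the fewest counts of the family. Its 9 libraries held 0 to 61 counts, with 24, 19 and 14 in CELF2-KI RIPs, 40, 17 and 0 in IgG RIPs and 17, 61 and 42 in the input. On the CPM scale these were 1.92, 1.46 and 1.25, then 2.50, 1.69 and 0, then 0.27, 0.67 and 0.68. CELF2-KI RIP and the first 2 IgG RIP libraries overlapped, and both were above the input. The log2 fold change over IgG RIPs was 0.14 (SE 0.90, FDR = 0.906; -0.46 without IgG RIP replicate 3) and over the input 1.51 (SE 0.89, FDR = 0.166). Without IgG RIP replicate 3, the library at 0, Grin3b was called higher than the input both in CELF2-KI RIPs, at 1.5 (FDR = 0.00900), and in IgG RIPs, at 1.96 (FDR = 0.00552).

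**Figure D2:**
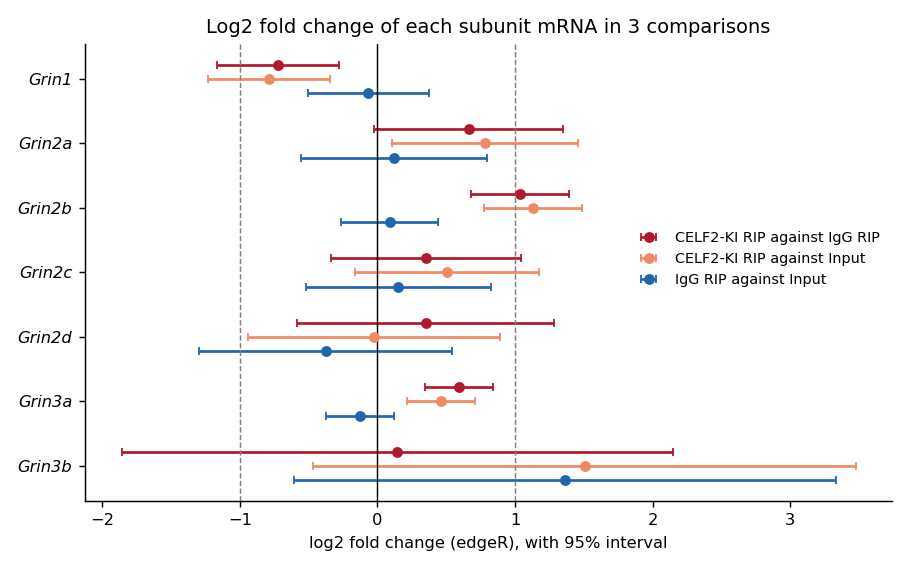
The horizontal axis is the log2 fold change from edgeR and each bar is its 95% interval, with 3 comparisons per gene and dashed lines at 2-fold either way. Grin2b lies just past the upper line in both CELF2-KI RIP comparisons, at 1.04 and 1.13, Grin1 lies left of 0 in both, and the bars of IgG RIP against the input hold 0 for all 7 genes.

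The comparison of IgG RIP with input shows what the beads and a nonspecific antibody hold back. No subunit was called, where 6.79% of all tested genes were called higher and 5.01% lower. The count at an unadjusted p under 0.05 was 0 of 7, by edgeR and by DESeq2. The log2 fold changes ran from -0.38 for Grin2d to 1.36 for Grin3b, and those of Grin1, Grin2b and Grin3a were -0.07, 0.09 and -0.13. For Grin2b the order of the conditions was thus CELF2-KI RIP, IgG RIP and input, with no difference beyond the spread between IgG RIP and input. For Grin1 the order was input, IgG RIP and CELF2-KI RIP, with the same pair not told apart.

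The 2-fold limit was sensitive to how libraries were put on one scale. The alternatives were total counts, upper quartile, TMM over coding and noncoding genes together, and DESeq2's size factors. As a scaling, total counts are the summed counts of the tested protein-coding genes or rows, not of the whole library. With these and the main scaling, the median of all tested genes over IgG RIPs moved between -0.42 and -0.06. Over the input it moved between -0.27 and 0.19. Grin2b ran from 0.65 to 1.04 over IgG RIPs and from 0.65 to 1.13 over the input, and of these scalings it was called only under TMM on protein-coding genes. A change of scale shifts all genes by nearly the same amount, so values relative to the median of all genes hardly move by construction. They place a gene among the others and are no check of the 2-fold limit. Relative to that median, Grin2b was 1.08 to 1.09 above over IgG RIPs and 0.92 to 0.93 above over the input. Grin3a was 0.65 to 0.66 and 0.27 to 0.28 above, and Grin1 lay at -0.67 to -0.65 and -0.98 to -0.96. Grin2a was 0.70 to 0.72 and 0.58 to 0.59 above the median. DESeq2's Wald test called 0 of 7 subunits in either CELF2-KI RIP comparison, with 3 and 2 of them under the FDR threshold against 2 and 3 by edgeR.

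A ratio of 2 subunits within one library does not depend on that scaling. Its value reflects transcript lengths too, so that only its change between libraries is read. For each count of Grin1 there were 8.47, 25.0 and 16.4 counts of Grin2b in CELF2-KI RIPs, 5.25, 3.90 and 4.13 in IgG RIPs and 3.84, 3.88 and 4.13 in the input. All 3 CELF2-KI RIP ratios exceeded all 6 control ratios, and the lowest of them came from replicate 1. The difference was 1.79 on the log2 scale from IgG RIPs and 1.94 from the input, or 3.45-fold and 3.84-fold. The exact permutation test gave p = 0.1 for each, two-sided, which is the smallest that 3 against 3 libraries allow, and 0.117 after adjustment over 14 tests (7 ratios in 2 comparisons).

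Other subunits were also more frequent relative to Grin1 after CELF2-KI RIP. All these ratios share the Grin1 counts, which were themselves lower there, so they are not independent of each other. Grin2d itself, for example, stood at -0.03 on the log2 scale over the input. How many of all tested genes would separate in the same way relative to Grin1 was not counted. Grin3a to Grin1 was 2.35, 3.45 and 3.56 in CELF2-KI RIPs, 1.25, 1.04 and 1.32 in IgG RIPs and 1.25, 1.26 and 1.24 in the input, a difference of 1.35 and 1.29 on the log2 scale. Grin2a to Grin1 differed by 1.55 and 1.61, Grin2c to Grin1 by 1.16 and 1.34, and Grin2d to Grin1 by 1.36 and 0.84, with no overlap between CELF2-KI RIP and either control and again p = 0.1 in the exact permutation tests. Grin3b to Grin1 overlapped IgG RIP (exact permutation p = 0.3). The ratio of Grin2a to Grin2b, the pair whose balance shifts as synapses mature, was 0.0213, 0.0176 and 0.0229 in CELF2-KI RIPs, 0.0219, 0.0416 and 0.0155 in IgG RIPs and 0.0264, 0.0270 and 0.0239 in the input. It overlapped IgG RIP (difference -0.24, exact permutation p = 0.8) and lay below input in all 3 libraries (difference -0.33, exact permutation p = 0.1). Without IgG RIP replicate 3 the differences from IgG RIPs were 1.74 for Grin2b to Grin1, 1.42 for Grin3a, 1.18 for Grin2a, 1.48 for Grin2c, 0.73 for Grin2d and 0.37 for Grin3b, each to Grin1.

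**Figure D3:**
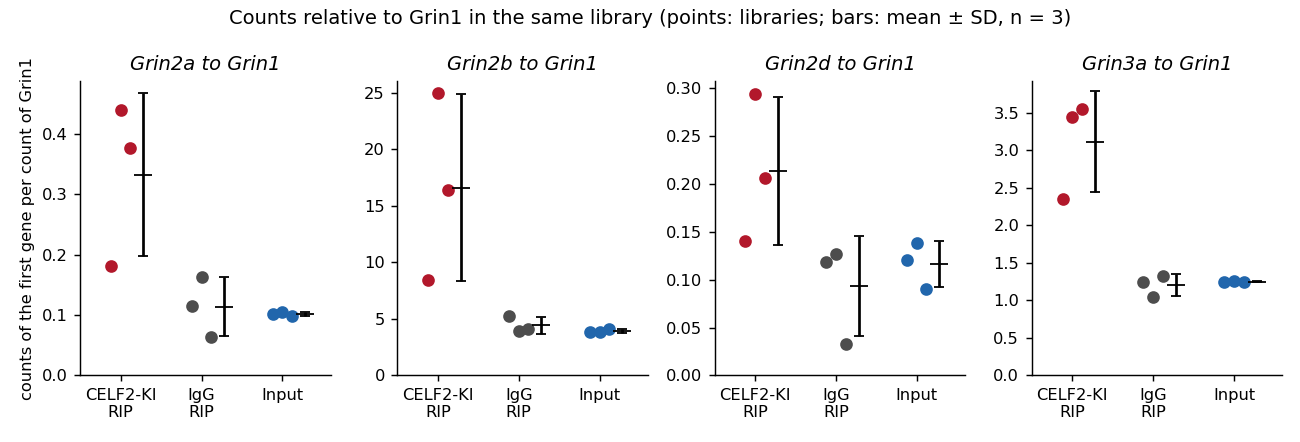
Each panel plots the counts of 1 subunit gene per count of Grin1 in the same library, on a linear axis from 0, with 1 point per library and the mean ± SD (n = 3). The CELF2-KI RIP points lie above all 6 control points in each of the 4 panels, with Grin2b to Grin1 at 8.47 to 25.0 against 3.84 to 5.25, and they spread more than the input points.

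Over the 9 libraries, log2 CPM of Grin1 and Grin2b moved in opposite directions (Pearson r = -0.95, n = 9 libraries), and those of Grin2b and Grin3a moved together (r = 0.74). These values describe 9 points in 3 conditions that share their scaling factors, and carry no test. Among the 5 genes with the pattern most like that of Grin2b were Ntrk2 and Pag1, with r of 0.996 and 0.995, and Ccnd2, with r of 0.995. Ntrk2 encodes the BDNF receptor TrkB and Ccnd2 the cell cycle protein cyclin D2. Those most like Grin3a were Fibcd1, Cyb5b, Trp53rka, Nr2e1 and Slc8a2, with r from 0.970 to 0.984.

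The transcript rows were also read singly. Reads shared by several transcripts of a gene are divided between rows by the pseudoaligner, so a row is less certain than the gene's sum. Of the 36 rows, 10 carried curated accessions and 26 were predicted or noncoding models, 3 were at 0 in every library, and 20 passed the filter and were tested among 39129 rows. Against IgG RIP, 0 of 20 rows were called higher or lower, where 3.19% of all tested rows were called higher and 3.14% lower. Without adjustment, 7 of 20 had p under 0.05 and 4 of these were higher. Against input 0 of 20 were called higher and 1 lower, where 0.940% of all tested rows were called higher and 4.51% lower, and 6 of 20 had an unadjusted p under 0.05, of which 2 were higher. The median log2 fold change of all tested rows was -0.20 over IgG RIPs and -0.14 over the input. Where a row is said below not to overlap, how many of all tested rows separate in that way was not counted.

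Both Grin1 rows that held counts lay on the low side in CELF2-KI RIPs. NM_001177657.2 measured 30.3, 20.4 and 17.0 CPM in CELF2-KI RIPs, 43.7, 48.6 and 48.6 CPM in IgG RIPs and 56.1, 65.3 and 61.6 CPM in the input, without overlap. It was the called row, with a log2 fold change of -1.43 from the input (SE 0.22, FDR = 0.00521), and its value from IgG RIPs was -1.06 (FDR = 0.0161). The call against the input was lost with the replicate number as a block and when 1 library was left out in 6 of 9 cases, all but those without CELF2-KI RIP replicate 1, IgG RIP replicate 1 or IgG RIP replicate 3. NM_008169.3, the larger row, changed by -1.21 from the input (FDR = 0.0264) and by -0.90 from IgG RIPs (FDR = 0.0694). It held 75.2 to 83.0% of Grin1 counts in CELF2-KI RIPs, 77.7 to 80.4% in IgG RIPs and 76.7 to 81.1% in the input, so that the split between both rows overlapped across the conditions.

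Grin2b was spread over 6 rows, of which NM_008171.3 and the predicted XM_006505573.3 held most counts in all 9 libraries. XM_006505573.3 measured 710, 863 and 773 CPM in CELF2-KI RIPs, 460, 299 and 436 CPM in IgG RIPs and 470, 458 and 431 CPM in the input. Its log2 fold change of 0.97 over IgG RIPs passed the FDR threshold (SE 0.17, FDR = 0.00703) and stayed under 2-fold, and over the input it was 0.79 (FDR = 0.0183). Its value over IgG RIPs was 1.04 with an FDR of 0.0116 once IgG RIP replicate 3 was left out. NM_008171.3 had a similar estimate with a wider error, 0.97 over IgG RIPs (SE 0.29, FDR = 0.0646). The predicted row XM_017321396.1 did not share that direction. It measured 141, 112 and 85.8 CPM in CELF2-KI RIPs, 80.0, 182 and 164 CPM in IgG RIPs and 181, 170 and 210 CPM in the input. This amounted to -0.33 on the log2 scale over IgG RIPs (FDR = 0.575) and -0.72 over the input (FDR = 0.197). As a share of Grin2b counts it was 9.73%, 5.46% and 5.21% in CELF2-KI RIPs against 15.9%, 15.6% and 19.0% in the input, without overlap, and 7.31%, 18.8% and 18.2% in IgG RIPs, where replicate 1 overlapped.

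Whether rows of one gene moved apart was tested with edgeR's diffSpliceDGE, which sets each row against the other rows of its gene. Its values are on the natural log scale, unlike the log2 values elsewhere. It called 0 of 19 subunit rows in either comparison, where 0.718% of all 32889 rows were called against IgG RIPs and 0.505% against the input, and 2 of 19 had an unadjusted p under 0.05 in each comparison. Those were the Grin2b row XM_017321396.1, at -0.78 against IgG RIPs (FDR = 0.383) and -0.94 against the input (FDR = 0.334), and the Grin2d row XM_006540631.3, which was at or near 0 in the 3 CELF2-KI RIP libraries and in 2 of the 3 IgG RIP libraries.

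**Figure D4:**
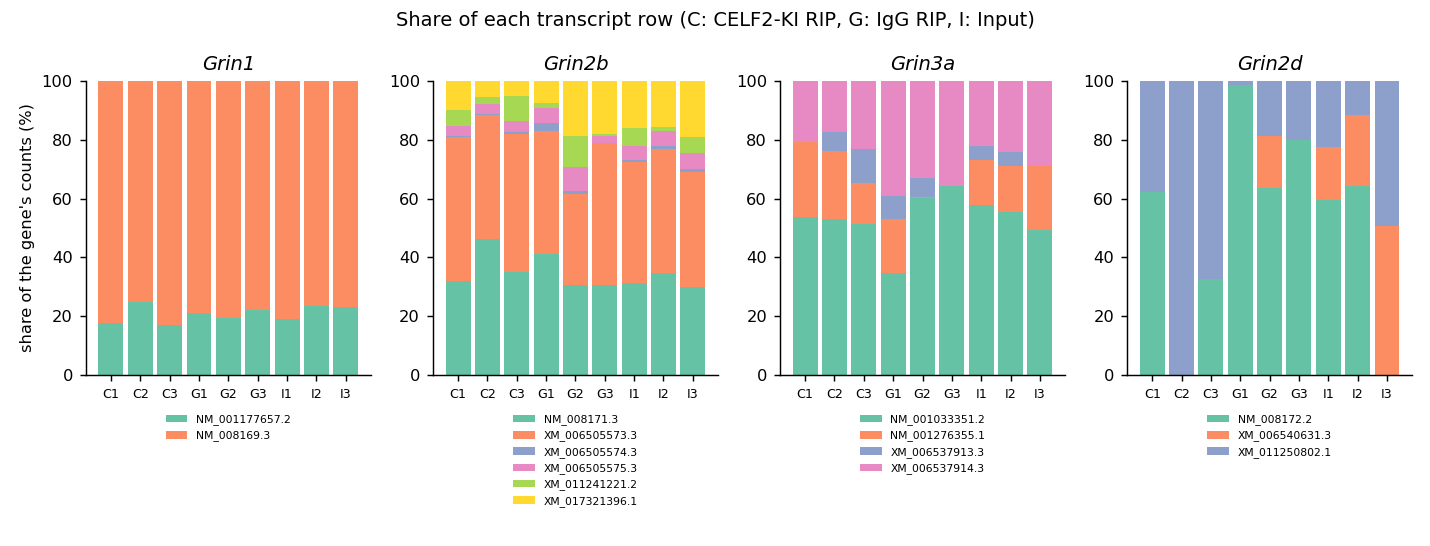
Each stacked bar divides the counts of 1 gene in 1 library among its transcript rows, in percent, for rows that reach over 1% in some library (C, CELF2-KI RIP; G, IgG RIP; I, input; replicates 1 to 3). The split is even across libraries for Grin1, the Grin2b row XM_017321396.1 takes 5.21 to 9.73% in CELF2-KI RIPs and 15.6 to 19.0% in the input, and the Grin2d split changes between replicates of one condition.

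In Grin2d the split changed between replicates of one condition. The curated Grin2d row NM_008172.2 held 62.3%, nearly 0% and 32.5% of Grin2d counts in CELF2-KI RIPs, 98.6%, 63.5% and 79.8% in IgG RIPs and 59.7%, 64.4% and 0.0911% in the input. Curated Grin2d counts alone are thus no stable measure of that gene here. The curated Grin2a row NM_008170.2 held 68.1 to 79.3% in CELF2-KI RIPs, below the 83.6 to 86.8% in the input without overlap, and 30.3 to 91.1% in IgG RIPs. The diffSpliceDGE test of that row against the input gave an unadjusted p of 0.777. Of the 4 Grin3a rows, XM_006537914.3 held 17.4 to 23.3% in CELF2-KI RIPs, 33.1 to 39.0% in IgG RIPs and 22.2 to 29.1% in the input, so that it overlapped the input and not IgG RIPs. Grin2c was divided over 13 rows, each with few counts, of which 2 were tested. In Grin3b the curated row NM_130455.2 took 100% of the 14 to 24 counts in each CELF2-KI RIP library, and 0 to 44.8% in the 5 control libraries with counts.

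Genes that build, place and regulate the receptor were read from 6 lists of 94 genes in all, each from textbook roles. The lists were chosen with earlier results of these data known, so their counts are a description and not an independent test. All 94 were tested, and in the comparison with IgG RIPs 18 passed as higher and 11 as lower, beside the 13.4% and 13.5% of all tested genes given above. The input comparison gave 18 and 12 (14.6% and 15.5% of all tested genes), and 11 genes were higher than in both controls (7.58% of all tested genes). A fit without IgG RIP replicate 3, chosen after seeing the data, called 19 of the 94 higher and 11 lower than IgG RIPs, where 14.6% and 15.1% of all tested genes were. The median of their log2 values was 0.34 over IgG RIPs and 0.47 over the input, where all tested genes had medians of -0.06 and 0.19. The medians of the 7 subunits were 0.35 and 0.50.

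Among 15 scaffolds of the postsynaptic density, 1 was higher than in both controls, 2 were lower than in IgG RIPs and 1 of these was also lower than in the input. The higher one was Homer2, which links metabotropic receptors to the scaffold, at 160 ± 39.2 CPM in CELF2-KI RIPs against 69.2 ± 3.55 in IgG RIPs and 51.8 ± 0.967 in the input (SD, n = 3), a log2 fold change of 1.21 and 1.63. Actn2, an actin crosslinker that binds GluN1 and GluN2B, was 1.60 lower than in IgG RIPs, while its value against the input was -0.39 (FDR = 0.0661). Its level was highest in IgG RIPs, at 22.4 ± 3.11 CPM, against 7.39 ± 1.19 in CELF2-KI RIPs and 9.68 ± 0.227 in the input. The member lower than in both was Dlg4, which encodes the scaffold PSD-95 that binds GluN2 subunits, at -1.37 and -1.62. It was chosen for naming after its values were seen. Of 18 kinases and phosphatases that act on the receptor, 5 were higher and 2 lower than in IgG RIPs, 3 were higher and 2 lower than in the input, and 2 were higher than in both controls. Those were Cdk5r1, the activator p35 of the kinase Cdk5, at 1.52 and 1.28, and Src, which phosphorylates GluN2 subunits, at 1.49 and 1.59. Cdk5 itself fell by 1.75 and 1.5 on the log2 scale, so that the mRNAs of the kinase and of its activator changed in opposite directions.

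Of 13 genes that supply the co-agonists D-serine and glycine, 3 were higher and 3 lower than in IgG RIPs, 2 were higher and 4 lower than in the input, and 2 were higher than in both controls. Slc1a4, a transporter of serine and other neutral amino acids, changed by 1.68 and 1.28, and Slc6a9, the glycine transporter GlyT1, by 1.40 and 1.26. The largest fall from IgG RIPs in that list was that of Shmt2, a mitochondrial serine hydroxymethyltransferase, at -1.41 and -1.60. Of 17 genes of receptor trafficking, calls against IgG RIPs were 2 higher and 3 lower, and 4 were higher and 2 lower than in the input. Rab11a, a GTPase of recycling endosomes, rose by 1.5 and 1.07, and Lin7c, an adaptor that carries GluN2B cargo, by 1.38 and 1.12. Its paralog Lin7b fell by 1.70 and 1.62. Lin7b was thinly counted, with means of 1.85 CPM in CELF2-KI RIPs, 6.01 in IgG RIPs and 5.68 in the input.

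Of 15 genes of calcium and Ras signalling below the receptor, 3 were higher and 1 lower than in IgG RIPs, and 4 were higher and 3 lower than in the input. Creb1, a transcription factor, rose by 1.05 and 1.11, while the immediate early gene Arc fell by 1.02 and 1.18. Arc was thinly counted, with means of 2.12 CPM in CELF2-KI RIPs, 4.30 in IgG RIPs and 4.81 in the input. Of 16 surface and secreted modulators, 4 were higher and 0 lower than in each control, and the log2 fold change over IgG RIPs was above 0 for 16 of 16, where 48% of all tested genes were above 0. Over the input it was above 0 for 15 of 16, where 56.4% of all tested genes were. With IgG RIP replicate 3 left out, 5 modulators were higher than in IgG RIPs, the median of the scaffolds over IgG RIPs went from -0.17 to -0.31, and the calls over IgG RIPs in the other lists kept their counts in each direction. The reelin receptors Vldlr, at 1.38 and 1.71, and Lrp8, at 1.17 and 1.39, were the members higher than in both. The other ionotropic glutamate receptors are set beside them. Of 11 AMPA, kainate and delta receptor subunits, 1 was called higher than in both controls, the kainate receptor subunit Grik3, at 1.17 over IgG RIPs and 1.33 over the input, and 0 were lower.

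**Figure D5:**
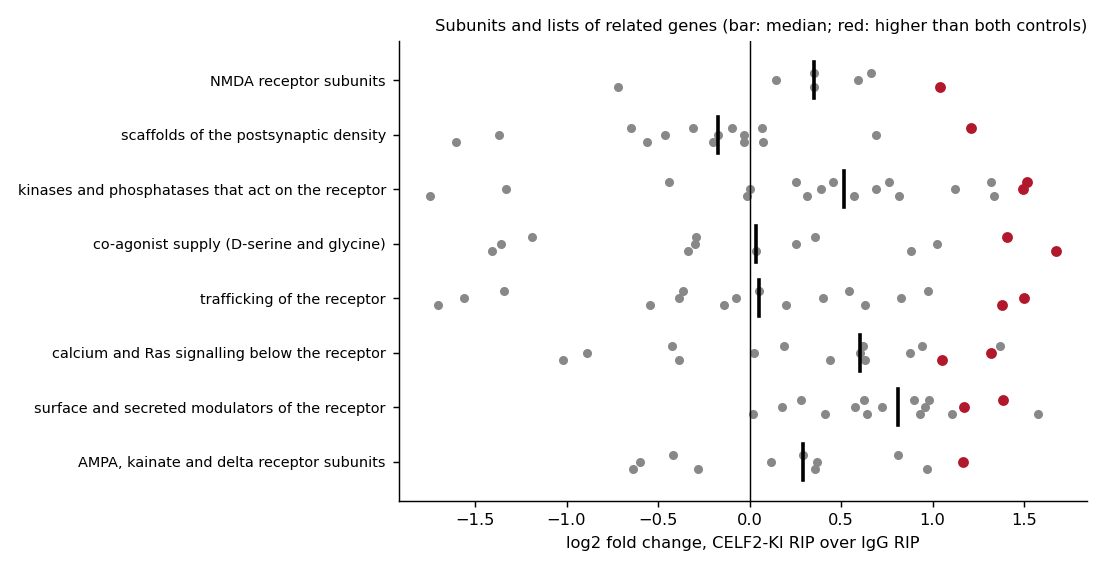
Each point is the log2 fold change of 1 gene in CELF2-KI RIPs over IgG RIPs, by list, with red for genes called higher than in both controls and a black bar at the list's median. The NMDA receptor subunits run from -0.72 for Grin1 to 1.04 for Grin2b, the scaffolds have a median of -0.17 and the surface and secreted modulators one of 0.81.

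Marker mRNAs of cell types moved with the same comparison, and their counts of calls stand beside the same background shares of 13.4% higher and 13.5% lower than in IgG RIPs and of 14.6% and 15.5% against the input. All 6 neuron and all 7 excitatory neuron markers, the cortical genes Tbr1 and Neurod6 among them, passed the filter on low counts. The summed level of 7 excitatory neuron markers was 1672 to 2280 CPM in CELF2-KI RIPs, 894 to 1041 in IgG RIPs and 971 to 1136 in the input, with 4 called higher than in IgG RIPs and 3 than in the input. That of 6 neuron markers was 4053 to 4586, 2818 to 3409 and 3898 to 4186 CPM, with 3 higher than in IgG RIPs and 0 than in the input. That of 6 inhibitory neuron markers was 588 to 725, 330 to 382 and 463 to 479 CPM, with 2 higher than in IgG RIPs, 1 higher than in the input and 1 lower.

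The summed levels of the radial glia and erythroid markers went the other way. The 6 radial glia markers summed to 165 to 256 CPM in CELF2-KI RIPs, 455 to 498 in IgG RIPs and 572 to 616 in the input, with 3 called lower against each. The 3 tested erythroid markers summed to 59.0 to 67.6, 263 to 414 and 651 to 834 CPM, with 3 of 3 lower than in IgG RIPs and 2 lower than in the input. The microglial marker P2ry12, at 0 in 7 libraries, was not tested. The 4 astrocyte markers summed to 519 to 895, 434 to 483 and 724 to 936 CPM, with 1 higher than in IgG RIPs and 0 called against the input. The 5 OPC (oligodendrocyte precursor cell) markers summed to 548 to 655, 546 to 573 and 489 to 557 CPM, with 0 called against IgG RIPs and 2 lower than in the input. The 5 tested microglia markers summed to 93.4 to 127, 58.1 to 78.3 and 129 to 163 CPM, with 1 higher and 2 lower than in IgG RIPs and 1 higher and 3 lower than in the input. The 5 endothelial markers summed to 162 to 237, 138 to 318 and 173 to 278 CPM, with 0 called against IgG RIPs and 1 lower than in the input. With IgG RIP replicate 3 left out, 3 excitatory neuron markers were higher than in IgG RIPs and 1 neuron marker was lower, and the other marker counts over IgG RIPs stayed as given. The part of these shifts in the values of Grin2b and Grin1 was not tested. For levels in the input, which is bulk lysate, the number of cells of a type and the RNA per cell cannot be told apart.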

How the data were processed

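RNA from CELF2-KI RIP, IgG RIP and input (3 libraries each) was rRNA-depleted and made into directional libraries. The authors checked reads with FastQC 0.11.9, trimmed them with fastp 0.23.4, removed rRNA reads with Ribodetector 0.3.1 and quantified them with kallisto 0.51.1. The submitters' processing notes also name DESeq2 1.46.0, edgeR 4.4.0 and mm10. The authors deposited estimated counts per transcript, not normalized for depth or length, and 0 columns were left out. The paper names an Ensembl transcriptome, whereas the rows carry RefSeq accessions. Replicates were separate libraries, and p-values set the difference between conditions against the spread between replicates. The main fit and the permutation tests did not pair libraries.

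Rows were matched by accession, ignoring the version, to RefSeq genes (assembly GRCm38.p6). Of 107384 rows, 86714 matched, and the 20670 unmatched rows, with 9.27 to 12.7% of counts in CELF2-KI RIP and input and 21.1 to 43.5% in IgG RIP, stayed out. Sums per gene were rounded. edgeR 4.0.16 (R 4.3.3, limma 3.58.1) fitted every protein-coding gene that reached 0.5 CPM in 3 or more libraries, with TMM and a mean per condition over all 9 libraries, and DESeq2 1.42.0 was an alternative. The common biological coefficient of variation was 0.221. Single rows were fitted in the same way. Ratios (0.5 counts added to both genes) were compared by exact permutation tests. Correlations used log2 CPM with a prior count of 2, and principal components the 500 most variable genes. Python 3.11.15, pandas 2.3.3, scipy 1.17.1 and matplotlib 3.10.9 were used. The fits were also run on simulated counts with the same spread for all genes and libraries, unlike in these data. The outcome is not used as support here.

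All 7 members are named. From each list the text names up to 3 members called higher than both controls, by fold over IgG RIP, and the member called lower than IgG RIP with the largest fall, and, for Grin2b and Grin3a, the 5 most correlated genes. A few genes that this rule names are not reported here. The members and lists were chosen with earlier results of these data known. Same-numbered CELF2-KI RIP and input libraries deviated together weakly (r = 0.185, 0.122 and 0.212 over 11532 genes). Libraries with different numbers were not compared, so whether the numbers pair them was not tested. The same correlations were -0.07, 0.04 and -0.01 for CELF2-KI RIP with IgG RIP, and 0.09, 0.06 and 0.01 for IgG RIP with input. Alternatives were other scalings, filters, tests, row sets, a replicate block and leaving out each library. Sequences and transcript lengths were not used here.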

Additional observations from a re-analysis of the deposited data

How the results depend on the processing

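With a replicate block the count of subunits called stayed at 1 higher and 0 lower in both CELF2-KI RIP comparisons, and Grin2b was 1.03 over IgG RIP and 1.12 over input. The block changed no call on the subunit genes, and it lowered the number of Grin1 rows called lower than input from 1 to 0. The number of subunits called higher than in IgG RIP, and higher than in both controls, was 0 in place of 1 under total counts, upper quartile, TMM over coding and noncoding genes, DESeq2's size factors, edgeR's glmTreat against 2-fold, no filter on low counts, curated rows only, a fit of only 2 groups, and DESeq2's Wald test. Against input it was 0 under the same settings except no filter and curated rows. Leaving out 1 library gave 0 to 2 subunits called higher than in IgG RIP, 0 to 2 than in input, 0 to 1 than in both, and 0 to 1 called lower in either comparison. Without IgG RIP replicate 3, 1 subunit, Grin3b, was higher in IgG RIP than in input, so that count ran from 0 to 1. Grin1 was called lower (1 subunit) than in IgG RIP under total counts, and than in input under total counts, upper quartile, TMM over coding and noncoding genes and a fit of only 2 groups. For single rows, a looser filter of a mean of at least 1 count gave 1 row called higher than in IgG RIP, and total counts gave 1 row called lower. Leaving out 1 library gave 0 to 1 rows higher and 0 to 2 lower than in IgG RIP, and 0 to 2 lower than in input. The cause of these changes was not tested.

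Direction reversed in small or thinly counted values. Over IgG RIP, total counts gave -7.6e-05 for Grin2c, -0.030 for Grin2d and -0.22 for Grin3b, upper quartile -0.12 and TMM over coding and noncoding genes -0.037 for Grin3b, and Grin2d was -1.22 with curated and -1.19 with version-matched rows. Over input, Grin2c was -0.64 with curated rows and Grin2d 0.018 with the replicate block. In IgG RIP over input, curated rows gave 0.060 for Grin1, -0.47 for Grin2a, -6.73 for Grin2c, 0.53 for Grin2d and -0.075 for Grin3b, version-matched rows -2.35 for Grin2c, 0.46 for Grin2d and -0.13 for Grin3b, TMM over coding and noncoding genes -0.063 for Grin2a, -0.086 for Grin2b and -0.011 for Grin2c, and total counts -0.0024 for Grin2b. In the usage test the Grin3a row NM_001033351.2 was 0.0029, on the natural log scale, with the replicate block. With curated rows the log2 ratio differences were -1.04 for Grin2c to Grin1 against input, -2.27 for Grin2d to Grin1 and 0.10 for Grin2a to Grin2b against IgG RIP.

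Leaving out 1 library moved Grin2d between -0.071 and 0.75 and Grin3b between -0.46 and 0.96 over IgG RIP, and Grin2d between -0.21 and 0.039 over input. In IgG RIP over input the ranges were -0.33 to 0.43 for Grin2a, -0.19 to 0.33 for Grin2c and -0.77 to 0.043 for Grin2d. Row values ran from -0.95 to 0.073 for XM_006521795.3 of Grin2a and -0.15 to 0.62 for XM_006505575.3 of Grin2b over IgG RIP, and over input from -0.025 to 0.27 for the latter and -0.18 to 0.072 for NM_001033351.2 of Grin3a. Usage values are on the natural log scale. Against IgG RIP they ran from -0.024 to 0.24 for NM_008171.3, -0.17 to 1.38 for XM_011241221.2 and -0.17 to 0.11 for NM_001033351.2. For the last 2 they ran from -0.20 to 0.47 and -0.069 to 0.0082 against input. The log2 ratio difference of Grin2a to Grin2b against IgG RIP ran from -0.56 without IgG RIP replicate 3 to 0.15 without IgG RIP replicate 2.

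Version-matched rows hold none of Grin2a or Grin2b, so counts of calls were not made for them. Grin2c and Grin3b were limited by depth, with at most 93 and 40 counts in a RIP library.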
